A study of Mus musculus with 8 samples.

Results

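The expression of 10 genes of the cardiac lineage was followed in WT and CTCF-K20R cells, namely 6 transcription factors of cardiac progenitors (Nkx2-5, Hand1, Hand2, Isl1, Mef2c and Tbx5) and 4 genes of the contractile apparatus (Tnnt2, Myl7, Myl4 and Actc1). The genes were taken by symbol from a table of 18094 genes, and all 10 were found in it. A filter kept the 15767 genes that averaged 10 normalized counts or more across all 8 libraries, and 9 of the 10 passed it and were tested, whereas Tnnt2 did not. RNA-seq libraries had been made from mESCs of the E14Tg2A line on day 0 and from EBs on day 4, in a WT and a CTCF-K20R genotype, with 2 libraries per group. Day 0 cells were kept on inactivated mouse embryo fibroblasts with LIF and the inhibitors CHIR99021 and PD0325901, and EBs, which are cell aggregates that start to differentiate, were grown in hanging drops with serum and no LIF. CTCF-K20R cells carry arginine in place of lysine at position 20 of CTCF, an architectural protein that binds DNA, and were obtained with CRISPR/Cas9, a donor vector and drug selection of colonies. How many colonies gave the libraries is not given in the sources used here, so genotype and colony cannot be told apart. The question behind the comparison was whether this lysine is needed when mESCs turn into cardiac mesoderm.

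In the embryo, heart muscle arises from mesoderm that leaves the primitive streak and forms a first heart field and a later, Isl1-expressing second heart field. Nkx2-5, Tbx5, Hand1, Hand2 and Mef2c, together with GATA factors, switch on the genes of the sarcomere, in which cardiac actin (Actc1) slides along myosin with its light chains (Myl7 and Myl4) under the control of the troponin complex (Tnnt2). Several of these genes are also used elsewhere, such as Hand1 in trophoblast, Isl1 in motor neurons and Actc1 in skeletal muscle.

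Total normalized counts per library were between 19412659 and 21311513, and 1 read was worth between 0.811 and 1.14 normalized counts, so that the detection floor, set at 3 reads, lay between 2.43 and 3.43. Differences within each WT pair were smaller than sampling noise, and the pair was counted as 1 sample per day, so p-values rest on the spread within the CTCF-K20R pairs. Early mesoderm markers summed to between 40330 and 40473 normalized counts in WT EBs against between 455 and 463 in WT mESCs, and pluripotency markers to between 15404 and 15511 against between 90125 and 90218. Ctcf itself was at 4241 and 4256 normalized counts in WT EBs and at 4926 and 4771 in CTCF-K20R EBs (log2 fold change 0.19, SE 0.048, limma adjusted p = 0.0268), which did not pass the fold threshold and, for a point mutation, does not check the genotype. On day 0 its log2 fold change was also 0.19 (SE 0.048, limma adjusted p = 0.055). Over the 58 tested genes within 1 Mb of Ctcf, the median log2 fold change was 0.54 on day 4 and 0.53 on day 0. A gene was called where the adjusted p was under 0.05 and the absolute log2 fold change above 1, on the scale of log2(normalized counts + 1), which understates the change of low genes.

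On day 4, 5 of the 9 tested genes were called lower in CTCF-K20R EBs than in WT EBs (Hand1, Hand2, Isl1, Myl7 and Actc1) and 0 were called higher in limma, with 5 and 1 at an unadjusted p under 0.05. Over all genes tested, 8.65% were called lower and 6.89% higher on this day, 15.5% in all. Both CTCF-K20R EB libraries lay below both WT EB libraries in 7 of the 9 genes and above them in 1, against 41.7% and 43.3% of all genes tested. The median log2 fold change was -1.97 over the 9 genes and 0.01 over all genes tested, and it was the same with Hand2 set to its bound. On day 0, 1 of the 9 was called, Mef2c, which was lower, against 3.79% of all genes tested (2.6% lower and 1.19% higher). Hand1, Hand2 and Mef2c passed the filter through the WT EBs only, with means of 5.55, 0.203 and 7.19 normalized counts over the other 6 libraries, so these counts and the median describe the genes and are no support for a direction. The 5 day 4 calls were also made without either CTCF-K20R EB library, where the lone library left is assumed to vary like the CTCF-K20R mESC pair. RNA of a whole culture cannot tell fewer cells of a type from less RNA per cell.

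**Figure D1:**
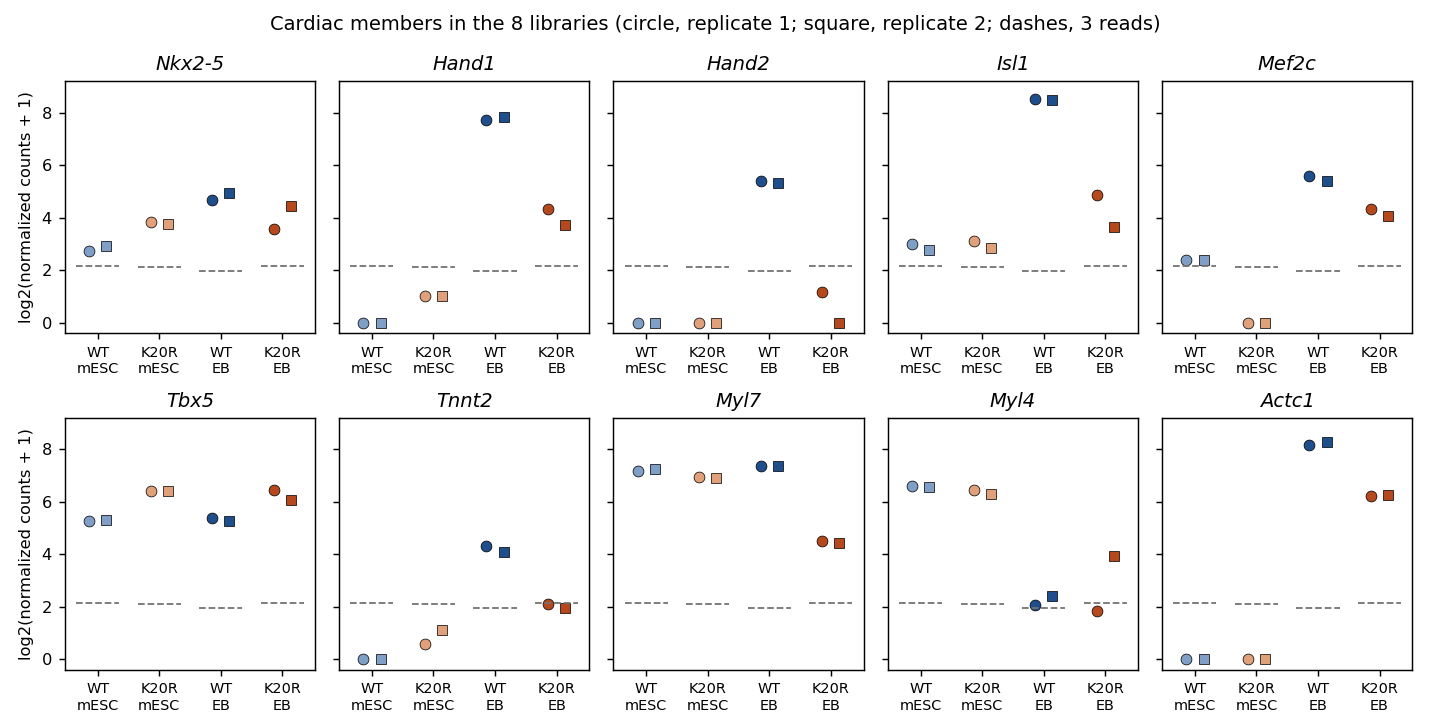
Expression of the 10 genes in each library, as log2(normalized counts + 1), with circles for replicate 1, squares for replicate 2 and a dashed line at 3 reads for each group. Hand1, Hand2, Isl1, Mef2c, Tnnt2 and Actc1 were highest in the WT EBs, and Hand2 and Tnnt2 lay at or under the dashed line in CTCF-K20R EBs.

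The detection floor separated the genes by group. In CTCF-K20R EBs on day 4, Hand2 and Tnnt2 were at or under the floor in both libraries and Myl4 was under it in replicate 1. In WT EBs, 0 of the 10 genes were at the floor in either library. On day 0, Hand1, Hand2, Tnnt2 and Actc1 were at or under the floor in all 4 mESC libraries, and Mef2c was at 0 in both CTCF-K20R mESC libraries. Where 1 group was at the floor, the fold is given as a lower bound set by 3 reads per library, and floors cover counting error only, since no molecular identifiers are named for these libraries.

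Isl1 (ENSMUSG00000042258, chr13:116298281-116309689 on the minus strand of GRCm38), a LIM homeodomain factor that marks progenitors of the second heart field, was at 362 and 359 normalized counts in WT EBs and at 28.1 and 11.3 in CTCF-K20R EBs. The WT EBs stood above all other libraries, and the lower of the CTCF-K20R EBs was still above the mESCs of both genotypes, which lay between 5.77 and 7.62. Isl1 was 18.3-fold lower in CTCF-K20R EBs (log2 fold change -4.26, SE 0.608, limma adjusted p = 0.00391). On day 0 the log2 fold change was 0.11 (SE 0.608, limma adjusted p = 0.93). The 3 tested genes within 1 Mb of Isl1, listed after their values were seen, were also called lower on day 4, namely Parp8 (-2.22), Emb (-1.85) and Gm17509 (-1.87). The part of this neighbourhood in the value of Isl1 was not tested.

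Hand1 (ENSMUSG00000037335, chr11:57828705-57832818, minus strand), a basic helix-loop-helix factor of the early heart and of extraembryonic mesoderm, was at 211 and 225 normalized counts in WT EBs and at 19.3 and 12.0 in CTCF-K20R EBs. In mESCs it was at 0 in both WT libraries and at 1.00 and 1.02 normalized counts, about 1 read, in both CTCF-K20R libraries. Both genotypes were thus above their floor on day 4 only, and the EB groups did not overlap. The difference on day 4 was 13.9-fold (log2 fold change -3.75, SE 0.552, limma adjusted p = 0.00431).

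Hand2 (ENSMUSG00000038193, chr8:57320983-57324633, plus strand), the close relative of Hand1 that acts in the second heart field and the right ventricle, was at 40.4 and 38.5 normalized counts in WT EBs. It was at 1.22 and 0 in CTCF-K20R EBs and at 0 in all 4 mESC libraries. Hand2 was therefore seen in WT EBs alone above the floor, where it was at least 11.5-fold higher than in CTCF-K20R EBs (limma adjusted p = 0.00657). Its exons share 461 bases with those of Hand2os1 on the opposite strand, and whether the counting used strand is not given in the sources used here.

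Nkx2-5 (ENSMUSG00000015579, chr17:26838664-26845009, minus strand), the homeodomain factor of cardiac progenitors, was at 24.7 and 29.4 normalized counts in WT EBs and at 10.9 and 20.4 in CTCF-K20R EBs. On day 0 it was at 5.66 and 6.62 in WT mESCs and at 13.4 and 12.4 in CTCF-K20R mESCs. The CTCF-K20R libraries were above WT on day 0 and below WT on day 4, without overlap on either day. Neither difference passed the test, with a log2 fold change of -0.81 on day 4 (SE 0.528, limma adjusted p = 0.272) and of 0.96 on day 0 (SE 0.528, limma adjusted p = 0.282). The 2 CTCF-K20R EB libraries differed by nearly as much as the groups did, which limits what these values can show.

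Mef2c (ENSMUSG00000005583, chr13:83504034-83667080, plus strand), a MADS-box factor that acts on muscle genes and is also used in neurons and endothelium, was at 47.0 and 40.7 normalized counts in WT EBs and at 18.9 and 15.9 in CTCF-K20R EBs. The EB groups did not overlap, but the 2.52-fold difference was not called (log2 fold change -1.29, SE 0.529, limma adjusted p = 0.107). The 2 tested genes within 1 Mb of Mef2c, listed after their values were seen, had positive log2 fold changes on day 4. C130071C03Rik (2.40) was called higher and Tmem161b (0.33) was not called. The part of this neighbourhood in the value of Mef2c was not tested. In mESCs, Mef2c was at 4.18 and 4.16 normalized counts in WT and at 0 in both CTCF-K20R libraries, which was called lower (limma adjusted p = 0.0389) with a bound of at least 1.26-fold. This call rests on about 4 reads per WT library. It was not made after quantile normalization, where 0 of the 9 genes were called lower on day 0. It was lost without either CTCF-K20R mESC library (limma adjusted p = 0.0939 without replicate 1 and 0.094 without replicate 2), and without either CTCF-K20R EB library (0.0664 and 0.0669).

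Tbx5 (ENSMUSG00000018263, chr5:119832668-119885219, plus strand), the T-box factor of the first heart field and the forelimb, had higher values in the CTCF-K20R libraries on both days. It was at 37.3 and 38.7 normalized counts in WT mESCs and at 83.1 and 84.6 in CTCF-K20R mESCs. In EBs it was at 40.4 and 37.4 in WT and at 87.0 and 65.4 in CTCF-K20R. The genotypes did not overlap on either day, and in neither genotype did the level differ by more than the fold threshold between days. The difference was 2.21-fold on day 0 (log2 fold change 1.12, SE 0.300, limma adjusted p = 0.0625) and 1.96-fold on day 4 (log2 fold change 0.94, SE 0.300, limma adjusted p = 0.0553), which did not pass the test on either day. After quantile normalization it was called on both days (1.25 on day 0 and 1.17 on day 4). The median log2 fold change of the 17 tested genes within 1 Mb of Tbx5 was 0.37 on day 4 and 0.04 on day 0.

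**Figure D2:**
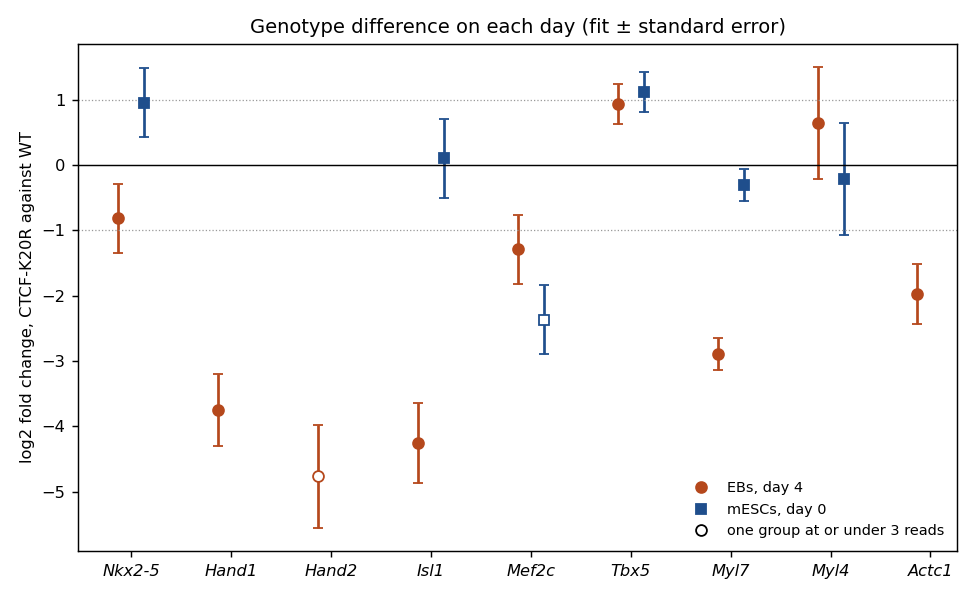
Log2 fold change of CTCF-K20R against WT for the 9 tested genes on day 4 (circles) and day 0 (squares), with bars for 1 standard error of the fit and dotted lines at the fold threshold. Open symbols have 1 group at or under 3 reads, and no value is drawn where both groups were there. Isl1, Hand1, Hand2, Myl7 and Actc1 lay well under the lower line on day 4, whereas Tbx5 lay near the upper line on both days.

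The contractile genes did not share a pattern. To show what lies before their start sites, the 250 bases upstream of the RefSeq start site are printed 5′ to 3′ in the direction of transcription (GRCm38.p6), with the 12 bases next to the Actc1 start left out because GENCODE places them in an exon. The Actc1 window lies within the GENCODE span of the gene, whose most upstream exon starts further away. Capitals mark a CArG box, the site of serum response factor, in Actc1 and Myl7, and the GATA site AGATAA, read on the other strand, in Tnnt2.
Actc1 (chr2:114052888-114053125, minus strand): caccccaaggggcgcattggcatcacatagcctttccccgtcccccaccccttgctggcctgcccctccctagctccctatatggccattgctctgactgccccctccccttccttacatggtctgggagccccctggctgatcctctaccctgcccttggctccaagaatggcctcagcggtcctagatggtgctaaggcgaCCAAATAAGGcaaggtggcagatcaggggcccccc
Myl7 (chr11:5898783-5899032, minus strand): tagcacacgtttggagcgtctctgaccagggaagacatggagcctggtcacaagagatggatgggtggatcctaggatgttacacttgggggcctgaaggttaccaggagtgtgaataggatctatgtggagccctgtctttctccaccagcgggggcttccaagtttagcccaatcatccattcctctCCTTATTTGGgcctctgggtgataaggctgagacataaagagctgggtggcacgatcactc
Tnnt2 (chr1:135836084-135836333, plus strand): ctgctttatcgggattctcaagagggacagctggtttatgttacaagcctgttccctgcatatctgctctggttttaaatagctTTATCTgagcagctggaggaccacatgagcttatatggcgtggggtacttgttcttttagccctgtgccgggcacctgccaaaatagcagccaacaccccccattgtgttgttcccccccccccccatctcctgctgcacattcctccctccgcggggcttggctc
Myl4 (chr11:104550413-104550662, plus strand): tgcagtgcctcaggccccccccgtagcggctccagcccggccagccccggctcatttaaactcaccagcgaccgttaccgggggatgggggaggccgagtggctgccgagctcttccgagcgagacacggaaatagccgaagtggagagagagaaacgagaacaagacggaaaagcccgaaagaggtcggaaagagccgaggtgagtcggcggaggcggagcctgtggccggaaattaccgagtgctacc
The CArG box begins 47 bases before the start site in Actc1 and 61 bases before it in Myl7. It was found, on either strand, in 2 of the 4 contractile genes and in 0 of the 4 regulators with a promoter entry (Hand2, Mef2c, Isl1 and Nkx2-5), and in 1.47% of the 32851 mouse promoter windows of the same length. AGATAA on either strand was found in 9.99% of these windows, in Tnnt2 and Hand2 among these genes. RefSeq gives Tnnt2 another start, and the window before it (chr1:135836739-135836988, not printed) held neither motif. The Myl4 window held neither of these motifs, nor TATAAA or the site of MEF2 factors. These are matches of letters and not binding sites.

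Myl7 (ENSMUSG00000020469, chr11:5896637-5898782, minus strand), the atrial regulatory light chain of myosin and one of the genes with a CArG box before its start, was at 163 and 166 normalized counts in WT EBs and at 21.8 and 20.5 in CTCF-K20R EBs. It was already present in mESCs, at 145 and 152 normalized counts in WT and at 122 and 118 in CTCF-K20R. The CTCF-K20R EBs thus stood far below the other 6 libraries, which covered a narrow range. Myl7 was 7.76-fold lower on day 4 (log2 fold change -2.90, SE 0.245, limma adjusted p = 0.000654), and the day 0 difference was not called (log2 fold change -0.31, SE 0.245, limma adjusted p = 0.445).

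Actc1 (ENSMUSG00000068614, chr2:114047282-114053548, minus strand), the cardiac alpha actin, was at 287 and 306 normalized counts in WT EBs and at 74.3 and 75.0 in CTCF-K20R EBs, and at 0 in all 4 mESC libraries. It was present in EBs of both genotypes and absent from the counts of mESCs, and the EB groups did not overlap. Actc1 was 3.97-fold lower in CTCF-K20R EBs (log2 fold change -1.97, SE 0.459, limma adjusted p = 0.0205). It was not called with a pseudocount of 0.1 (limma adjusted p = 0.0675).

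Tnnt2 (ENSMUSG00000026414, chr1:135836354-135852260, plus strand), the troponin subunit that ties the complex to tropomyosin and a common marker of cardiomyocytes, was at 19.1 and 16.2 normalized counts in WT EBs. It was at 3.35 and 2.83 in CTCF-K20R EBs, at 0 in WT mESCs, and at 0.503 and 1.17 in CTCF-K20R mESCs. All libraries but the WT EBs were at or under the floor, and Tnnt2 was at least 5.13-fold lower in CTCF-K20R than in WT EBs. It was too low to enter the test, and without the filter it was called lower (limma adjusted p = 0.0214).

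Myl4 (ENSMUSG00000061086, chr11:104550663-104595753, plus strand), the atrial essential light chain of myosin, was highest in mESCs. It was at 97.1 and 92.6 normalized counts in WT mESCs and at 86.6 and 77.5 in CTCF-K20R mESCs, and at 3.22 and 4.26 in WT EBs and 2.58 and 14.3 in CTCF-K20R EBs. The mESC libraries stood above all EB libraries, and the EB groups overlapped. The day 4 difference was not called (log2 fold change 0.64, SE 0.859, limma adjusted p = 0.59) and changed sign, to -0.40, without CTCF-K20R EB replicate 2.

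Levels of different genes were compared as normalized counts per kb of exon, since longer transcripts yield more reads. The length used was the union of all annotated exons of a gene, such as 590 bases for Myl7, 4637 for Myl4, 7752 for Tnnt2 and 15715 for Mef2c. A union can be longer than the transcripts present, which lowers the value per kb, so the order depends in part on the annotation. In WT EBs the order ran from Myl7 (278) through Actc1 (183), Hand1 (109), Isl1 (91.1), Hand2 (16.8), Nkx2-5 (15.7), Tbx5 (8.32), Mef2c (2.79) and Tnnt2 (2.27) to Myl4 (0.806). Hand2 and Nkx2-5 overlapped between their libraries, at 16.4 to 17.2 and 14.4 to 17.1, and the other neighbours in the order did not. In CTCF-K20R EBs, Actc1 (46.1) came before Myl7 (35.8), and Tbx5 (16.3) came next, above Nkx2-5 (9.12), Hand1 (7.83) and Isl1 (4.98), of which each overlapped with the next between libraries.

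The change between mESCs and EBs was then read within each genotype. In WT cells, where 1 sample stands against 1 and no test was made, 6 of the 9 tested genes were more than 2-fold higher and 1 more than 2-fold lower in EBs, against 18.9% and 16.3% of all genes tested. Hand1, Hand2 and Mef2c, which are among the 6, passed the filter through the WT EBs only. The count is thus a description and no support for a direction. Actc1 was at least 87.0-fold higher in WT EBs than in WT mESCs, Hand1 at least 64.1-fold, Hand2 at least 11.6-fold and Tnnt2 at least 5.18-fold. Isl1 was 56.9-fold higher, Mef2c 10.5-fold and Nkx2-5 4.41-fold, whereas Myl4 was 25.4-fold lower. Myl7 and Tbx5 were at nearly the same level on both days, with log2 changes of 0.14 and 0.03.

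In CTCF-K20R cells, 3 of the 9 tested genes were called higher on day 4 than on day 0 and 2 were called lower, against 14.5% and 11.6% of all genes tested, 26.1% in all. Actc1 rose at least 22.6-fold (limma adjusted p = 8.51e-05), Mef2c at least 5.26-fold (limma adjusted p = 0.000592) and Hand1 at least 4.73-fold (limma adjusted p = 0.00253). Myl7 fell by 2.45 on the log2 scale (SE 0.200, limma adjusted p = 0.000256), and Myl4 fell by 3.49 (SE 0.702, limma adjusted p = 0.00784), with an adjusted p of 0.0513 without CTCF-K20R mESC replicate 1. Isl1, with a log2 change of 1.26 (SE 0.496, limma adjusted p = 0.0756), was not called, but passed with an adjusted p of 0.03 without CTCF-K20R EB replicate 2. Nkx2-5 (0.20) and Tbx5 (-0.15) did not pass the test either.

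**Figure D3:**
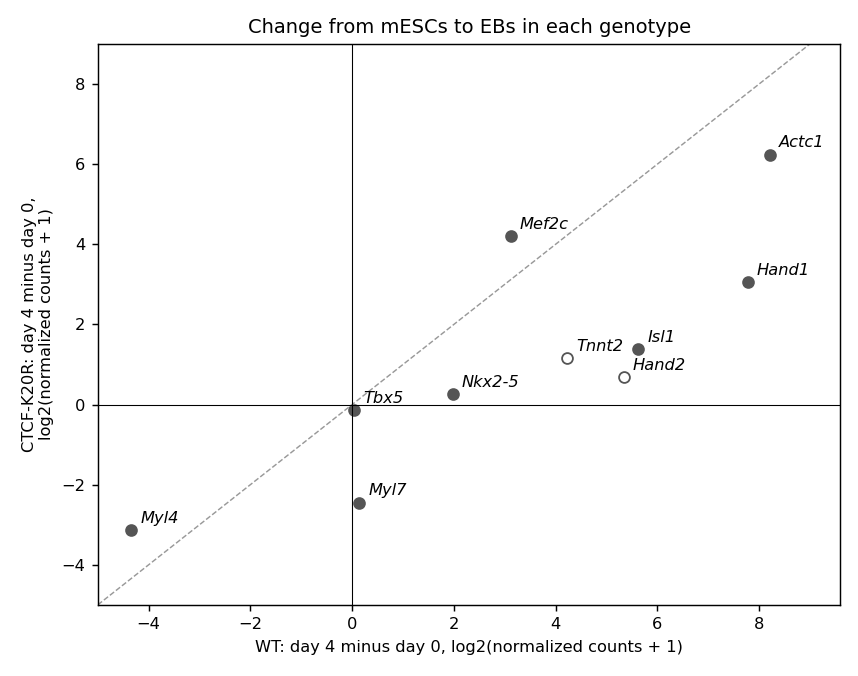
Change from day 0 to day 4 on the scale of log2(normalized counts + 1), in WT cells (horizontal axis) and CTCF-K20R cells (vertical axis), 1 point per gene from group means, with open points for genes at or under 3 reads in both CTCF-K20R groups. The dashed line marks equal change. Actc1, Hand1, Isl1, Hand2, Tnnt2, Nkx2-5 and Myl7 lay under this line, Mef2c and Myl4 above it, and Tbx5 next to it.

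The difference between the 2 genotype effects was tested as the genotype by day interaction. It was called for 4 of the 9 genes, all with a lower value on day 4, against 12.9% of all genes tested (6.04% lower and 6.84% higher). Of these, Hand1 and Hand2 passed the filter through the WT EBs only, so the count is a description and no support for a direction. With a pseudocount of 0.1, 3 genes were called lower and 1 higher, and with 8 separate libraries 6 were called lower and 1 higher. The interaction was -4.76 on the log2 scale for Hand1 (SE 0.781, limma adjusted p = 0.0103), -4.36 for Isl1 (SE 0.860, limma adjusted p = 0.0182) and -2.59 for Myl7 (SE 0.347, limma adjusted p = 0.00547). For Hand2 the fitted value was -4.77 (SE 1.12, limma adjusted p = 0.0308), and this value and that of Hand1 depend on the pseudocount, because the mESCs of both genotypes were at the floor. The interaction was not called for Actc1 (-1.97, SE 0.649, limma adjusted p = 0.0773) or Nkx2-5 (-1.77, SE 0.747, limma adjusted p = 0.14). It was also not called for Tbx5 (-0.18, SE 0.424, limma adjusted p = 0.781). Mef2c (1.08, SE 0.748, limma adjusted p = 0.339) and Myl4 (0.85, SE 1.22, limma adjusted p = 0.64) went the other way and were not called. The Mef2c value depends on the pseudocount, because both CTCF-K20R mESC libraries were at 0, against 4.18 and 4.16 in WT. On day 4 Mef2c was itself lower (-1.29). The Actc1 value equals its day 4 value, since Actc1 was at 0 in all mESC libraries. Of the 4 genes, Hand2 and Isl1 lost the call without CTCF-K20R mESC replicate 1 or replicate 2 (adjusted p between 0.0541 and 0.0668), Isl1 also without EB replicate 2 (0.0523), and Myl7 without EB replicate 1 (0.0532) or replicate 2 (0.0542), while Hand1 kept it in each of these fits.

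A wider list of 31 other regulators of heart development, such as GATA, T-box and MEF2 factors, gave 26 tested genes, of which 11 were called lower, 3 higher and 12 were not called on day 4. Over all genes tested, 8.65% were called lower and 6.89% higher. These lists were chosen with results of the data known, and 4 of the 11 (Mesp1, Gata6, Foxc1 and Foxc2) passed the filter through the WT EBs only, so their count is a description. Their median log2 fold change was -1.28, against 0.01 over all genes tested. Mesp1, the bHLH factor that marks the earliest cardiovascular progenitors, was at 1697 and 1693 normalized counts in WT EBs and at 2.40 and 1.07 in CTCF-K20R EBs, at least 493-fold lower (limma adjusted p = 0.000197). Gata6, a zinc-finger factor of heart and endoderm, was at 1207 and 1205 in WT EBs and at 4.69 and 10.7 in CTCF-K20R EBs, which is 157-fold lower (log2 fold change -7.21, SE 0.546, limma adjusted p = 0.000464). The mESC libraries lay between 0.951 and 5.61 for Mesp1 and between 6.90 and 13.5 for Gata6, so that the CTCF-K20R EBs were within or just below the range of the mESCs for both genes. Foxc2, a forkhead factor of mesoderm, was at 89.6 and 82.5 in WT EBs and at 0 in both CTCF-K20R EB libraries, at least 25.1-fold lower (limma adjusted p = 0.00211).

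The regulators called higher included Mef2b and Hopx, the latter named after its values were seen. Mef2b was at 0 in both WT EB libraries and at 154 and 110 normalized counts in CTCF-K20R EBs, but it shares 62 exon bases with Borcs8 on the same strand and is uncertain. Over the 65 tested genes within 1 Mb of Mef2b, the median log2 fold change was 0.70 on day 4 and 0.59 on day 0. Hopx, a small homeodomain protein of cardiac progenitors, was 4.90-fold higher (log2 fold change 2.27, limma adjusted p = 0.000941). Of the most abundant regulators that were not called, Srf, whose protein binds the CArG box, was at 1974 and 1939 in WT EBs and at 1777 and 1607 in CTCF-K20R EBs (log2 fold change -0.21, SE 0.081, limma adjusted p = 0.0893). Fgf8, a growth factor of the streak and the heart field, was at 1956 and 1925 in WT EBs and at 719 and 765 in CTCF-K20R EBs (log2 fold change -1.39, SE 0.454, limma adjusted p = 0.059). The WT and CTCF-K20R EB libraries of Fgf8 did not overlap, and it was called without CTCF-K20R mESC replicate 1 (adjusted p = 0.00879) or replicate 2 (0.0103). Without CTCF-K20R EB replicate 1, 9 regulators in place of 14 were called.

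Of 27 other contractile and calcium-handling genes, 26 were in the table and 20 were tested, of which 6 were called lower, 0 higher in limma and 14 were not called on day 4, with 7 lower and 4 higher at an unadjusted p under 0.05, against 8.65% lower and 6.89% higher among all genes tested. The median log2 fold change was -0.55. Of the 6 genes, 3 (Slc8a1, Cacna1c and Myh7) passed the filter through the WT EBs only. Cacna1c, the cardiac L-type calcium channel, was at 129 and 120 normalized counts in WT EBs and at 7.40 and 9.94 in CTCF-K20R EBs, which is 14.4-fold lower (log2 fold change -3.71, SE 0.604, limma adjusted p = 0.00611). Slc8a1, the sodium-calcium exchanger, was 12.4-fold lower (log2 fold change -3.48, SE 0.518, limma adjusted p = 0.00446) and Myh7, the slow myosin heavy chain, 11.3-fold lower (-3.37, SE 0.688, limma adjusted p = 0.0132). Over the 60 tested genes within 1 Mb of Myh7, the median log2 fold change was -0.93 on day 4 and -0.98 on day 0, and exons of Myh7 overlap 3 antisense genes, among them Mhrt. Tnnc1, cardiac troponin C, was at 47.1 and 47.8 in WT EBs and at 15.5 and 7.78 in CTCF-K20R EBs (log2 fold change -2.01, SE 0.534, limma adjusted p = 0.0313). In contrast, the calcium pump Atp2a2 (log2 fold change -0.17, SE 0.039, limma adjusted p = 0.0193) and tropomyosin Tpm1 (0.09, SE 0.043, limma adjusted p = 0.155), both abundant outside the heart, were not called. Without CTCF-K20R EB replicate 1, 3 genes in place of 6 were called, and without replicate 2, 2 genes. Cacna1c then had an adjusted p of 0.0679 or 0.0583, and Tnnc1 one of 0.0821 without replicate 2, as well as 0.0556 or 0.0564 without 1 of the CTCF-K20R mESC libraries.

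**Figure D4:**
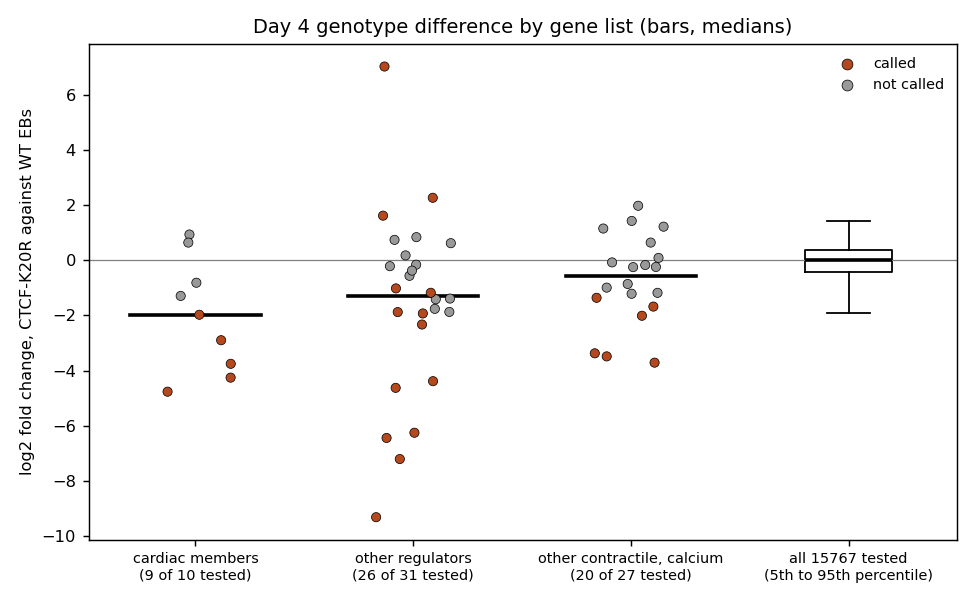
Log2 fold change of CTCF-K20R against WT EBs on day 4 for each tested gene of 3 lists (points, called genes in red, medians as bars), beside a box for all genes tested whose whiskers run from the 5th percentile (-1.93) to the 95th (1.43). Fitted values are drawn, including those of genes at the floor in 1 group, such as Mesp1, Foxc2, Hand2 and Mef2b. The medians were -1.97, -1.28, -0.55 and 0.01 from left to right.

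Among the 26 regulators, 1 was called lower and 2 higher on day 0, when 2.6% of all genes tested were called lower and 1.19% higher. Those called included Zfpm2, a GATA cofactor, which was lower, and Meis2, a homeodomain factor, which was higher, both named after their values were seen. Among the 20 contractile and calcium-handling genes, 0 were called in limma, with 3 lower and 2 higher at an unadjusted p under 0.05. After quantile normalization the share of higher genes among all day 0 calls moved from 31.4% to 41.9%.

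Marker genes of other cell types also differed between the EBs, some lower and some higher in CTCF-K20R, and their part in the results was not tested. All 6 early mesoderm markers were called lower, and their sum was between 2436 and 2529 normalized counts in CTCF-K20R EBs against between 40330 and 40473 in WT EBs. Of the 6 pluripotency markers, 4 were called higher and 1 lower, and their sum was between 31201 and 31927 against between 15404 and 15511. Endothelial markers summed to between 801 and 843 against between 5779 and 5790 (3 of 6 tested lower and 2 higher). Trophoblast markers, relevant to Hand1, summed to between 151 and 206 against between 868 and 880 (2 of 6 lower). Most of this difference lay in Cdx2 (23.1 against 595) and Gata3 (19.0 against 145), which are also expressed outside trophoblast. Elf5 (9.92 against 18.6), Ascl2 (55.2 against 38.7), Gcm1 (19.0 against 16.3) and Krt7 (52.4 against 59.6) were not called. The EB libraries of Elf5 did not overlap. For Isl1, only 2 of the 6 motor neuron markers were in the table, and they summed to between 31.3 and 46.3 against between 107 and 110. Both were tested and 0 were called. For Actc1, only 2 of the 7 skeletal muscle markers were in the table, Pax7 and Acta1, with sums between 31.5 and 34.6 against between 97.4 and 102. Most of this sum was Acta1 (31.0 against 93.5), which was not called (limma adjusted p = 0.267), and Pax7 was too low to be tested. Smooth muscle markers were between 1289 and 1323 in CTCF-K20R EBs and between 989 and 992 in WT EBs, with 1 of 4 called higher. Embryonic erythroid markers were between 53.5 and 65.8 against between 38.1 and 38.5, with 0 of the 2 tested called. Fibroblast markers were between 955 and 1016 against between 1022 and 1045, with 2 of 7 called lower and 2 higher.

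The 3 genes of the set with the widest range over the groups were Actc1 (8.21 on the log2 scale), Hand1 (7.77) and Isl1 (5.63). For each of them, the genes whose 8 library values lay closest were listed by Euclidean distance on the scale of log2(normalized counts + 1). The closest to Actc1 were Fam110c (1.31), Camk1g (1.84) and Gbp2 (1.94), and the closest to Hand1 were Irx5 (1.02), Ajap1 (1.62) and Irx1 (1.68). For Isl1 they were Foxc1 (0.864), Nedd9 (1.40) and Cnksr2 (1.53). Foxc1, a forkhead factor of mesoderm, was at 389 and 388 normalized counts in WT EBs and at 18.5 and 11.7 in CTCF-K20R EBs, and was between 4.61 and 6.70 in the mESC libraries. The levels of Irx5, an Iroquois homeodomain factor, ran alike those of Hand1, at 198 and 209 in WT EBs, 18.8 and 10.8 in CTCF-K20R EBs and 0 in both WT mESC libraries. Since the mESC values of Actc1 and Hand1 were at the floor, these distances rest mainly on the 4 EB libraries.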

How the data were processed

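RNA-seq data of 8 libraries (4 groups of 2) were used. Per the study's methods, reads were trimmed with Trim_Galore 0.4.4, quantified on mm10 with salmon 0.9.1, collapsed to genes with tximport 1.20.0 and scaled with DESeq2 1.10.1. The unit of the deposited table is a signal, the normalized count of a gene in a library, with a factor for each gene, so whole reads were not recovered and no count model was run. The annotation release and the use of strand are not given in the sources used here.

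Values of genes with a mean of 10 or more were put on the log2(value + 1) scale and fitted with limma 3.58.1 (lmFit, eBayes with a trend) in R 4.3.3, with 1 mean per group, WT pairs averaged (6 samples, 2 residual degrees of freedom), two-sided tests and Benjamini-Hochberg adjustment over all 15767 genes. The fit was tested on simulated data. Folds compare group means of the values. A group was at the floor where each of its libraries was at or under its own value of 3 reads. The value of 1 read was taken where values near 1 were most crowded in each library. Positions came from GENCODE vM21 (15664 of 15767 identifiers found) and promoters from RefSeq, with entries for 8 of the 10 genes (not for Hand1 and Tbx5). The plots were drawn with matplotlib 3.10.9 in Python 3.11.15.

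The genes and lists were chosen with earlier results of these data known. Besides the 10 genes and Ctcf, the text names from each wider list the 4 called genes with the largest day 4 change and the 2 most abundant that were not called, and for the 3 genes of widest range the 3 nearest in pattern. Other genes of these lists that are named were chosen after their values were seen, and 1 called gene is not reported here. Alternatives were separate WT libraries, a replicate block, another pseudocount, no filter, quantile normalization, no minimum fold, only the groups compared and each library left out.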

Additional observations from a re-analysis of the deposited data

Results flagged for a closer look

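For 4 genes the genotype effect differed between the days by the interaction term of the limma fit. The genotype effect on day 4 minus that on day 0 was -4.76 for Hand1, -4.77 for Hand2, -4.36 for Isl1 and -2.59 for Myl7 on the log2 scale. The values of Hand1 and Hand2 depend on the pseudocount, because the mESCs of both genotypes were at the floor. Both genes also passed the filter through the WT EBs only. No group held enough libraries for a search for single outlying samples.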

How the results depend on the processing

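Of the 9 tested genes, the 5 called on day 4 were called in every fit that left out 1 library (for WT libraries this could change little, since the pair entered as its mean), and their count stayed within 1.5 times of 5 under all alternatives run, with 6 under the replicate block. On day 0 the count of 1 became 3 with all 8 libraries as separate samples, the replicate block or only the groups compared. In each of these, 1 gene was lower and 2 were higher. With a pseudocount of 0.1 the count was 2, with 1 lower and 1 higher. The count of 1 was not kept in every fit that left out 1 library. For the interaction it became 7 with 8 separate libraries and 2 to 4 with 1 left out. For CTCF-K20R EBs against mESCs it was 4 to 7. The regulators called were 9 to 17 with 1 library left out. The contractile and calcium-handling genes called were 11 with separate libraries (7 lower and 4 higher) and 12 with the replicate block (8 lower and 4 higher). They were 11 with only the groups compared (8 lower and 3 higher) and 9 after quantile normalization (6 lower and 3 higher). Fewer than in the main fit were called without either CTCF-K20R EB library. Without CTCF-K20R EB replicate 1, 0 of the 15767 genes were called on day 0 by limma, while 2276 were higher and 2224 lower at an unadjusted p under 0.05.

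Sign changes occurred only in values that were not called. With either CTCF-K20R EB library left out, Myl4 lay between -0.40 and 1.69 on day 4 and between -0.20 and 1.90 for the interaction, Tbx5 between -0.39 and 0.019 for the interaction and between -0.35 and 0.052 between days in CTCF-K20R, and Nkx2-5 between -0.22 and 0.63 between days. Under quantile normalization Tpm1 was at -0.045 on day 4 and Nkx2-5 at -0.013 between days. On day 0, Isl1 lay between -0.022 and 0.23 with 1 library left out, with -0.0020 without WT replicate 2. Mef2c was called on day 4 with separate libraries (adjusted p = 0.00277), and Tbx5 on day 0 (adjusted p = 0.00153). After quantile normalization the day 0 count stayed at 1, but the gene called was Tbx5, which was higher, in place of Mef2c. The causes of these changes were not tested.

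The correlations of same-numbered deviations between groups lay between -0.0397 and 0.000986. Most of them involve a WT pair that differed by less than sampling noise, so these cannot show whether replicate numbers pair the samples. Between CTCF-K20R mESCs and CTCF-K20R EBs the correlation was -0.0397, so no pairing was seen there. The all-gene count on day 0 was 598 and became 1348 with separate libraries, 1344 with the replicate block, 1252 with only the groups compared and 2429 without a minimum fold. With 3 reads as floor, Hand1, Hand2, Tnnt2, Actc1, Mef2c and Myl4 are limited by depth in at least 1 library.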
